A study of Mus musculus with 22 samples.

Results

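The genes described here carry the names of the subunits of oxidative phosphorylation. They were taken from the array's gene names by a fixed pattern: names that start with NDUF (complex I), UQCR (complex III), COX4 to COX8 (complex IV) or ATP5 (complex V), together with SDHA to SDHD (complex II), CYC1 and CYCS. The pattern found 83 genes, represented by 123 of the 45281 probes, among 19919 named genes on the array. Of these 83, 77 code for a subunit or for cytochrome c. The other 6 match by name only and were kept apart: the complex I assembly proteins Ndufaf1 and Ndufaf2, the complex I membrane arm assembly protein Dmac2, the ATP synthase coupling factor B gene Dmac2l, the supercomplex assembly gene Cox7a2l, and Emc8 of the endoplasmic reticulum membrane complex. The genes lie on 19 chromosomes.

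At 29 weeks of age, RNA from the liver of 22 male mice of the inbred strain C57BL/6J was measured with 1 Illumina BeadChip array each. Their dams ate western (W) or low-fat control (L) diet from 5 weeks of age, for 6 weeks up to mating and on through gestation and lactation. The sons were given W or L after weaning for 24 weeks. In a group's name the dam's diet comes first and the son's after it: LL (low-fat, low-fat, n = 6), LW (low-fat, western, n = 5), WL (western, low-fat, n = 5) and WW (western, western, n = 6). The labels name no engineered allele, and the submitters left out 1 experimental and 1 biological outlier. Litters are not given in the labels, so mice of 1 group may be brothers, and the tests treat each mouse as independent.

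Oxidative phosphorylation takes place in the inner mitochondrial membrane. Complex I and complex II pass electrons from NADH and succinate to ubiquinone, complex III passes them to cytochrome c, and complex IV passes them to oxygen. Complexes I, III and IV pump protons as they do so, and complex V, the ATP synthase, lets the protons flow back to make ATP. Part of the subunits of complexes I, III, IV and V are encoded in mitochondrial DNA, and all the others, with the whole of complex II, in the nucleus. In the hepatocyte, the main liver cell, this chain takes up the electrons released by fatty acid oxidation. Transcription of the nuclear subunit genes is known to depend on NRF1, on ETS factors such as GABPA, on ESRRA and on YY1, with PGC-1alpha (Ppargc1a) and PGC-1beta (Ppargc1b) as coactivators.

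Promoter windows from RefSeq (build GRCm38.p6, 250 bases before to 50 after the start) were at hand for 67 of the 83 genes, as 73 windows. Each was searched on both strands for GCGCATGCG (NRF1), CCGGAAGT (ETS), TCAAGGTCA (ESRRA) and AAGATGGCG (YY1). The NRF1 letters stood in 9 of 73 windows (12.3%, against 1.75% of all 32851 windows), in Cycs, Uqcr11, Uqcrc1, Ndufa8, Ndufa11, Cox6a1, Atp5g2, Atp5k and Atp5l. The YY1 letters stood in 9 windows of 8 genes (12.3%, against 1.40%), and the ETS letters in 4 windows (5.48%, against 3.89%). The ESRRA letters stood in 2 windows (2.74%, against 0.423%). Shown here are Cox7b, the 1 member that passed a test, whose window holds none of the 4 motifs, Uqcr11, the gene with both NRF1 and ETS letters, and Ndufa9, with a YY1 match just after its start. Each runs 5′ to 3′ along the gene, and capitals mark a motif on either strand. A match is a description of letters and not a binding site.
Cox7b, chrX:106015450-106015749, plus strand: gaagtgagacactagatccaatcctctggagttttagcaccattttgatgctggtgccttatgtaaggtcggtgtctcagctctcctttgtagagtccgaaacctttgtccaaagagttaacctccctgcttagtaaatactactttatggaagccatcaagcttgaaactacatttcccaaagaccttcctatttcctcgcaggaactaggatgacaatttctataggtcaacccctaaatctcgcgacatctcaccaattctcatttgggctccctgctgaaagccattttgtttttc
Uqcr11, chr10:80406772-80407071, minus strand: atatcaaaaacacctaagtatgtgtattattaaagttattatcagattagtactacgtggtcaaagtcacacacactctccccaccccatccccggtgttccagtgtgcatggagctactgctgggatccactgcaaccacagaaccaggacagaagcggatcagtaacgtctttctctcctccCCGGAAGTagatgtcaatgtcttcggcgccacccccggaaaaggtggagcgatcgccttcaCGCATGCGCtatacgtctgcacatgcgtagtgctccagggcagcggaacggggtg
Ndufa9, chr6:126849095-126849394, minus strand: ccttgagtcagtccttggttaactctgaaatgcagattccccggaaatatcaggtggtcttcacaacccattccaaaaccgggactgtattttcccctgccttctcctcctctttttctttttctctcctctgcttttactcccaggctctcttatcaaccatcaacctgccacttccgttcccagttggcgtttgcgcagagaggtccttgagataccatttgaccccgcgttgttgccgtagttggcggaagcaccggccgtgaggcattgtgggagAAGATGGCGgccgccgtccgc

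The arrays detected between 13285 and 15105 probes each, and the mean signal per array ran from 151.1 to 276.5 intensity units. They lay on 4 slides that the groups filled unevenly: LL mice numbered 1, 2 and 3 on slides 1, 3 and 4, LW mice 2, 2 and 1 on slides 1 to 3, WL mice 2, 2 and 1 on slides 2 to 4, and WW mice 2 each on slides 1, 2 and 4. A pair of arrays stood apart from their groups in several members. LL replicate 1, the only LL array on slide 1, had the lowest mean signal (151.1), and WL replicate 5, alone of its group on slide 4, had the highest summed level of exocrine pancreas markers (53.59 on the summed log2 scale, against 46.56 at most in LL, LW and WW). Of the hepatocyte markers 5 of 6 were tested and Tat was not detected on any array. None of 8 skeletal and heart muscle markers was tested and 7 were not detected on any array. Values below are log2 intensities after background correction and quantile normalization, and no level is set against that of another gene, because probes differ in brightness at equal RNA.

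Few oxidative phosphorylation genes showed a difference between the 4 diet groups that passed a test, and small differences were below what these arrays could call. Of the 83 genes, 73 met the detection filter (detection p under 0.05 on at least 5 arrays) and were tested with limma among 9881 genes, and 65 of these were detected on all 22 arrays. At a Benjamini-Hochberg adjusted p under 0.05, 1 of 73 members passed in the average effect of offspring diet (1.37%), where 268 of 9881 genes did (2.71%). That gene was Cox7b, which was called lower on the western diet, as were 1.18% of all genes. The 7 other contrasts called 0 of 73 members: LW against LL (background 0.243%), WW against WL (0.476%), WL against LL (0%), WW against LW (0%), WW against LL (1.14%), the interaction (0%) and the average of dam diet (0%). The limma F test over the 4 groups called 0 as well (background 0.567%). At an unadjusted p under 0.05, counts were 9 for LW against LL, 8 for WW against WL, 1 for WL against LL, 4 for WW against LW, 7 for WW against LL, 3 for the interaction, 3 for the average of dam diet and 5 for the F test. The same unadjusted threshold was met by 15.4%, 13.8%, 4.74%, 10%, 15.5%, 8%, 5.89% and 16.1% of all genes in this order, against 12.3%, 11%, 1.37%, 5.48%, 9.59%, 4.11%, 4.11% and 6.85% of the members. In the average effect of offspring diet 14 of 73 members met it (19.2%), near the 20% of all genes. With slide as a fixed block, 0 members passed in any of the 8 contrasts. The shares of all genes given above belong to the fit without slide, so this 0 has no background beside it. In whole liver, fewer cells of a type and less RNA per cell cannot be told apart.

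The intervals give the size of change that these arrays leave room for. In the average effect of offspring diet, the 95% interval of 69 of 73 members (94.5%) lay within a 1.5-fold change in either direction, where 88.2% of all genes did, and all 73 lay within a 2-fold change. In LW against LL 63 of 73 members lay within 1.5-fold, and in WW against WL 59. The median spread between mice of 1 group was 0.20 on the log2 scale (SD over the members tested), against 0.26 over all genes. Among members the median difference for offspring diet was -0.059, with 26 higher and 47 lower on the western diet, against 0.0049 over all genes with 51.2% higher. With slide as a fixed block this median was -0.018, and with array centring in place of quantile normalization it was -0.136, with 19 members higher and a median of -0.019 over all genes. Between complexes the medians were -0.037 for complex I, -0.15 for complex II, 0.14 for complex III, -0.067 for complex IV and -0.092 for complex V. With slide as a block they were -0.024, -0.037, 0.021, -0.019 and -0.017.

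**Figure D1:**
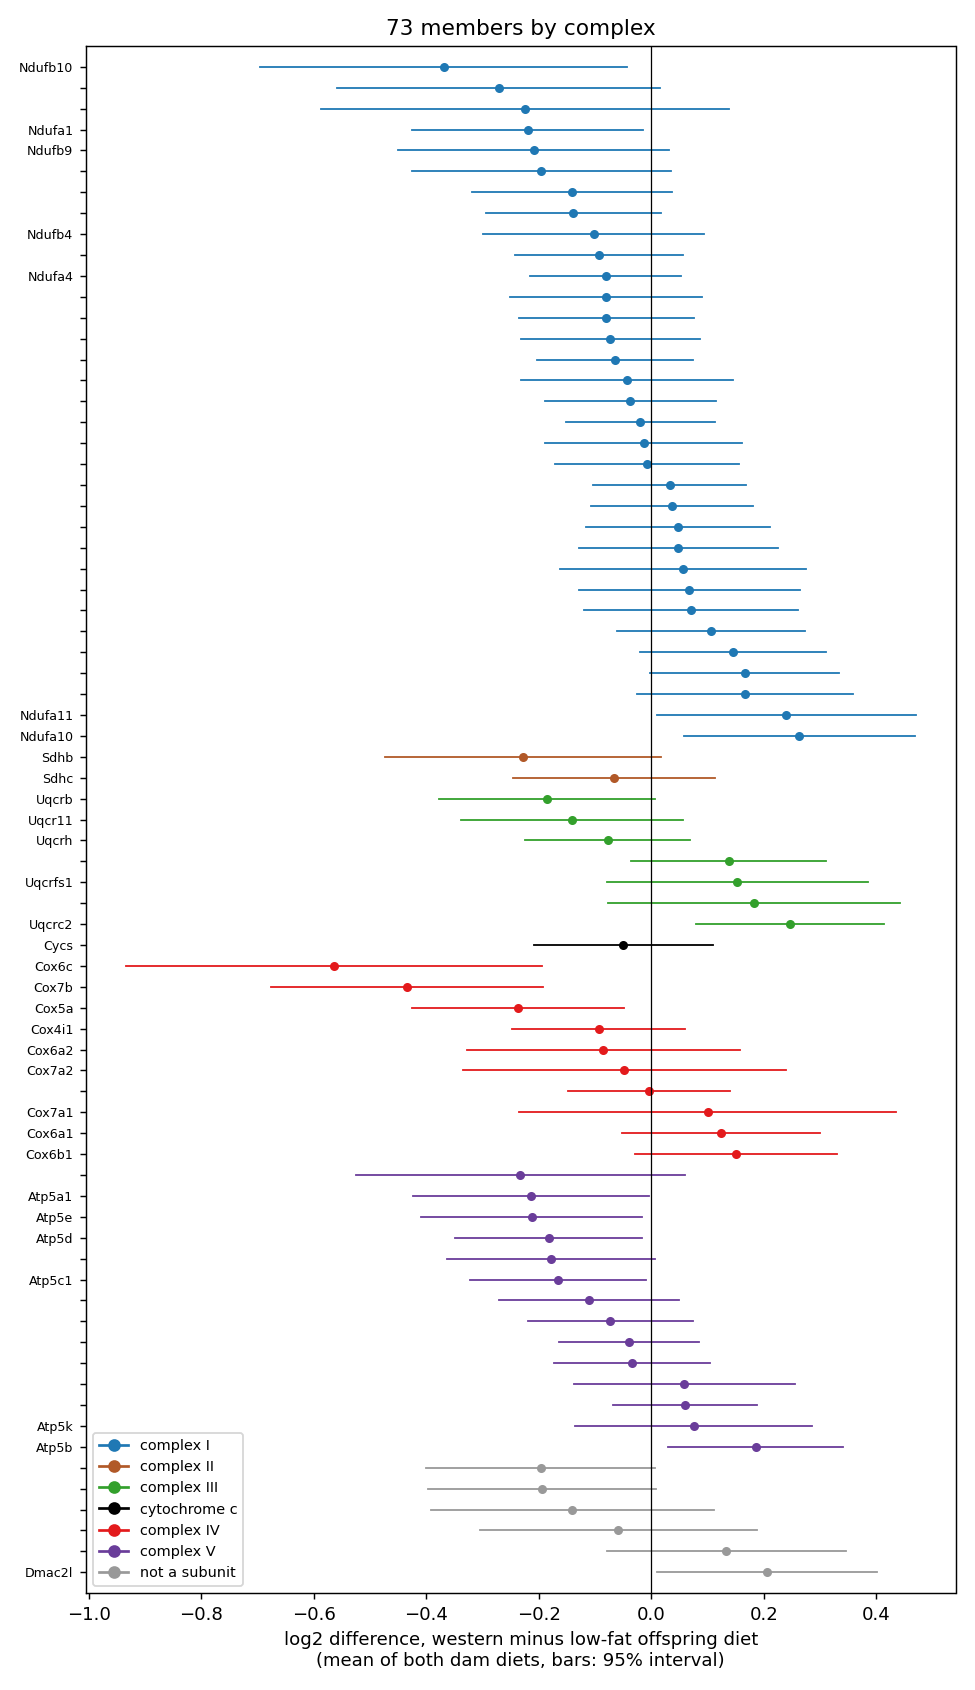
Average log2 difference of western minus low-fat offspring diet for each of the 73 tested members, grouped by complex and ordered by size within it, with names beside the members whose values are given in full or whose interval leaves out 0; bars are 95% intervals from limma and the vertical line marks no difference. Cox7b, at -0.43, is the only one called, Cox6c at -0.56 has a wider interval, and 69 of the 73 intervals lie within 1.5-fold.

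The spread is shown by a score per mouse, in which each gene's log2 value less its LL mean is averaged over the genes of a complex. Over all 73 members the score was 0 ± 0.046 in LL (SD, n = 6), -0.045 ± 0.035 in LW (n = 5), 0.021 ± 0.023 in WL (n = 5) and -0.029 ± 0.053 in WW (n = 6), so that all groups overlapped. In complex I it was 0 ± 0.054 in LL, -0.029 ± 0.032 in LW, 0.0040 ± 0.032 in WL and -0.029 ± 0.052 in WW. Complex IV had the lowest LW mean, with 0 ± 0.075 in LL, -0.15 ± 0.080 in LW, 0.042 ± 0.059 in WL and -0.022 ± 0.098 in WW. Its LW mice ran from -0.24 to -0.038 and its LL mice from -0.093 to 0.074, so these groups overlapped too. The LW mice did not overlap with the WL mice, which differ from them in both diets and shared slides 2 and 3 only, in the scores of complexes II, IV and V. Within slides, LW minus LL for complex IV was -0.13 on slide 1 and -0.18 on slide 3, where each value rests on 1 array on one side. Complex V scored 0 ± 0.065 in LL, -0.090 ± 0.052 in LW, 0.016 ± 0.020 in WL and -0.046 ± 0.060 in WW. The mean score of all members on slide 1 was -0.068 ± 0.034 (SD, n = 5 arrays), against -0.00060 on slide 2, 0.023 on slide 3 and -0.010 on slide 4.

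**Figure D2:**
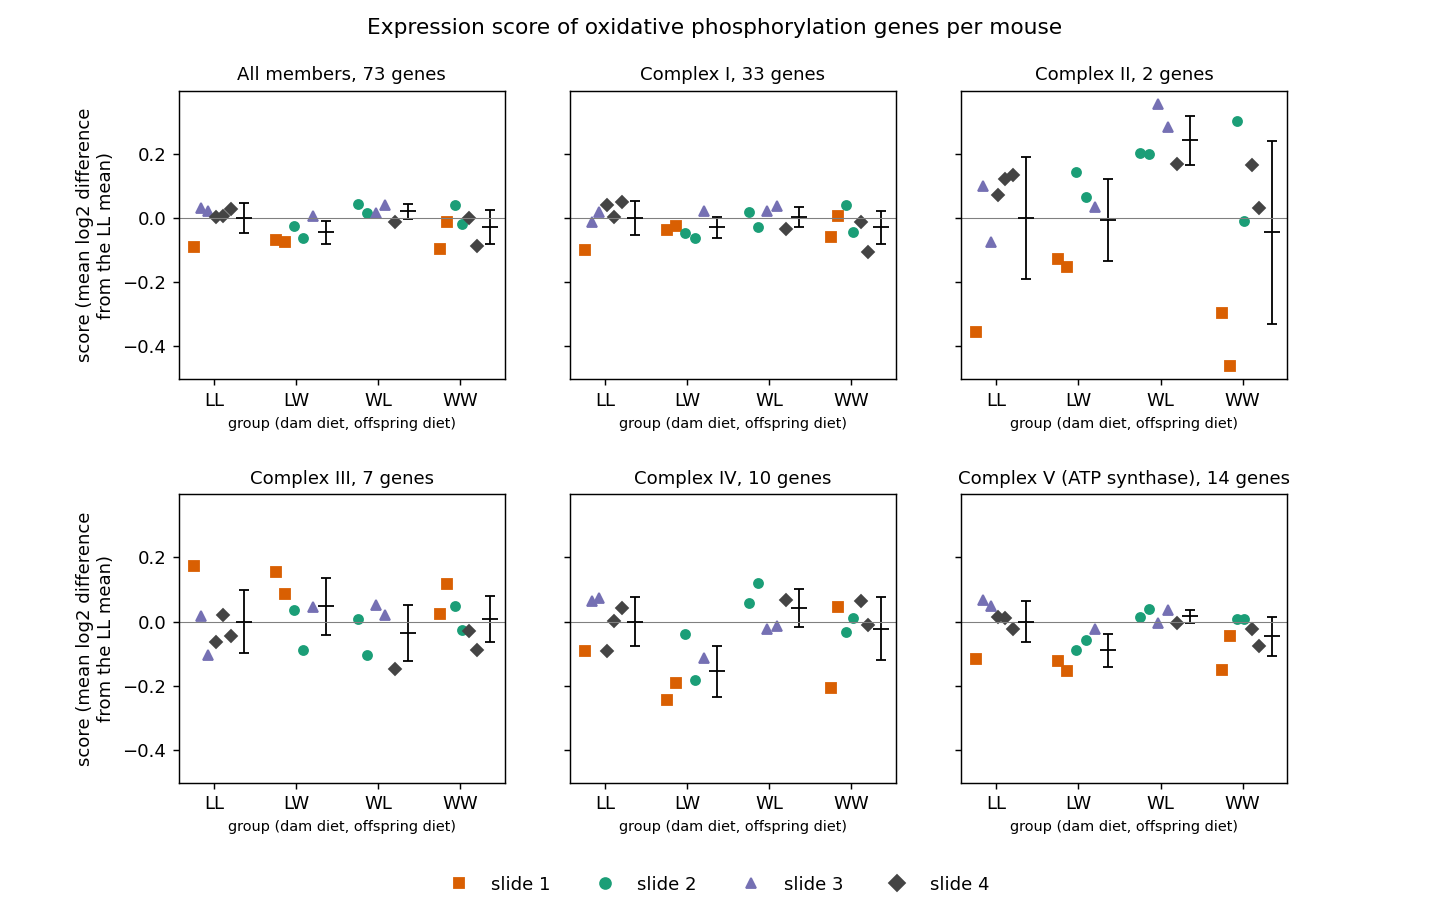
Expression score of each mouse (points, shaped and coloured by slide) for all members and for complexes I to V, by group, with the group mean and SD beside the points; the y axis is the mean log2 difference from the LL mean. Both groups of a dam diet overlap in every panel, and slide 1 arrays lie low in complex II, where 2 genes make up the score, and in complex V.

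Complex I takes in electrons from NADH and is the largest member of the chain. Of its 35 genes 33 were tested and 0 were called; Ndufs1, its largest iron-sulfur subunit, was not detected on any array, and Ndufab1, the mitochondrial acyl carrier protein, was detected on 1. In the average effect of offspring diet 13 were higher and 20 lower, from -0.37 (Ndufb10) to 0.26 (Ndufa10). Of the 33, 4 had an unadjusted p under 0.05, where 20% of all genes did. Among its core subunits Ndufv1, which binds NADH, differed by 0.05, Ndufv2 by -0.08, Ndufs3 by -0.27, Ndufs7 by -0.08 and Ndufs8 by -0.01, with adjusted p of 0.279 for Ndufs3 and 0.593 or more for the other 4. Ndufa4, which has this name but is now known as a subunit of complex IV, was 13.91 ± 0.09 in LL, 13.82 ± 0.05 in LW, 13.92 ± 0.10 in WL and 13.84 ± 0.13 in WW. Ndufb4, an accessory subunit detected on 9 arrays, was 4.76 ± 0.25 in LL, 4.65 ± 0.18 in LW, 4.92 ± 0.20 in WL and 4.82 ± 0.21 in WW.

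Ndufa10, an accessory subunit, had the smallest p of complex I in the F test. Its log2 level was 12.20 at the lowest, 12.34 at the median and 12.72 at the highest in LL, and 12.57, 12.69, 12.48, 12.65 and 12.31 in LW. In WL it was 12.24, 12.43, 12.50, 12.38 and 11.74, and in WW it ran from 12.30 through a median of 12.64 to 12.90. The groups overlapped, and WL replicate 5 was the low value. The average difference for offspring diet was 0.26 ± 0.10 (SE, limma adjusted p = 0.136), and 0.14 with slide as a block (adjusted p = 0.374). Ndufb10, an accessory subunit at the membrane arm, was 7.34 ± 0.57 in LL (SD, n = 6), 7.12 ± 0.28 in LW (n = 5), 7.62 ± 0.18 in WL (n = 5) and 7.10 ± 0.41 in WW (n = 6). LL replicate 1 stood at 6.21 and every other LL mouse at 7.38 or above. Its average difference was -0.37 ± 0.16 (adjusted p = 0.190), and -0.48 without that mouse (adjusted p = 0.0243), but -0.061 with slide as a block (adjusted p = 0.791). Ndufb9, another accessory subunit, was near background, at 5.57 ± 0.31 in LL, 5.47 ± 0.24 in LW, 5.50 ± 0.18 in WL and 5.18 ± 0.35 in WW, and was not called in any contrast.

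Complex II, succinate dehydrogenase, is also an enzyme of the citric acid cycle. Only 2 of its 4 genes were tested, since Sdha, the catalytic flavoprotein, was not detected on any array and Sdhd, a membrane anchor, on 4. Sdhb, the iron-sulfur subunit, was 9.74 ± 0.21 in LL, 9.57 ± 0.30 in LW, 10.002 ± 0.118 in WL and 9.72 ± 0.41 in WW. Sdhc, the other membrane anchor, was 11.78 ± 0.25 in LL, 11.94 ± 0.11 in LW, 12.003 ± 0.162 in WL and 11.71 ± 0.17 in WW. For Sdhc the western diet difference was 0.16 ± 0.12 in sons of low-fat dams and -0.29 ± 0.12 in sons of western-diet dams, and the interaction was -0.45 ± 0.17 (adjusted p = 0.569), so a difference between the dam diets was not shown. The lowest LL value of Sdhc, 11.30, again belonged to LL replicate 1.

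Complex III, the cytochrome bc1 complex, had 7 of 8 genes tested and 0 called; Uqcrq, a small subunit, was not detected on any array. Its members split, with 4 higher and 3 lower in both dam groups. Uqcrc2, core protein of the matrix side, had the lowest p of the complex. In LL its log2 level was 12.45 at the lowest, 12.63 at the median and 12.80 at the highest, and in LW it was 12.81, 12.87, 13, 12.75 and 12.85. In WL the values were 12.76, 12.76, 12.84, 12.61 and 12.41, and WW ran from 12.64 through 12.96 to 13.16. Most western-diet mice thus lay above most low-fat mice within each dam diet, with overlap. The average difference was 0.25 ± 0.08 (adjusted p = 0.0887), and 0.23 ± 0.11 in LW against LL and 0.26 ± 0.11 in WW against WL. Within slides, WW minus WL was 0.30 on slide 2 and 0.29 on slide 4, and LW minus LL was 0.14 on slide 1 and 0.06 on slide 3. The values of slides 1, 3 and 4 rest on 1 array on one side. With slide as a block the average was 0.19 (adjusted p = 0.131).

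Other subunits of complex III went both ways. Uqcrc1, the other core protein, Cyc1, which holds the heme of cytochrome c1, and Uqcrfs1, the Rieske iron-sulfur protein, differed for offspring diet by 0.14, 0.18 and 0.15, with Uqcrfs1 detected on 6 arrays. Uqcrb, near the ubiquinone site, differed by -0.19, Uqcr11 by -0.14 and Uqcrh, the hinge protein, by -0.08. Uqcrh was 13.27 ± 0.12 in LL, 13.21 ± 0.15 in LW, 13.31 ± 0.11 in WL and 13.21 ± 0.12 in WW, and Uqcrfs1 was 4.65 ± 0.24, 4.89 ± 0.39, 4.71 ± 0.26 and 4.78 ± 0.16 in the same order. The Uqcr11 level was 13.31 ± 0.24 in LL, with LL replicate 1 at 12.83 and the others at 13.35 or above, and 13.08 ± 0.24 in LW, 13.21 ± 0.12 in WL and 13.16 ± 0.22 in WW. Uqcrb was 7.19 ± 0.27 in LL, 6.98 ± 0.19 in LW, 7.003 ± 0.059 in WL and 6.85 ± 0.22 in WW. Cycs, cytochrome c itself, was 11.32 ± 0.12 in LL, 11.30 ± 0.16 in LW, 11.42 ± 0.12 in WL and 11.34 ± 0.19 in WW, and its groups overlapped. The average difference of Cycs was -0.05 ± 0.08, with a 95% interval from -0.21 to 0.11.

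Complex IV, cytochrome c oxidase, held the only called member and the largest differences. Of its 15 genes 10 were tested, 3 higher and 7 lower on the western diet. The catalytic subunits are encoded in mitochondrial DNA, and the genes tested here are nuclear subunits around them. Cox7b, a small membrane subunit encoded on the X chromosome, was 5.30 at the lowest, 5.47 at the median and 5.86 at the highest in LL. It was 5.05, 4.89, 5.29, 4.99 and 4.90 in LW, 5.89, 5.14, 5.61, 5.48 and 5.84 in WL, and between 4.52 and 5.54 with a median of 5.32 in WW. Every LW mouse lay below every LL mouse, though the highest LW value (5.29) nearly met the lowest LL value (5.30), while WL and WW overlapped.

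Averaged over dam diets, Cox7b fell by 0.43 ± 0.12 on the log2 scale (95% interval -0.68 to -0.19), a 1.35-fold decrease with a limma adjusted p of 0.0456. Neither dam group passed by itself, at -0.49 ± 0.17 for LW against LL (adjusted p = 0.168) and -0.38 ± 0.17 for WW against WL (adjusted p = 0.303). Within slides LW minus LL was -0.43 on slide 1 and -0.57 on slide 3, and WW minus WL was -0.69 on slide 2 and -0.35 on slide 4. On slides 1, 3 and 4 the Cox7b value rests on 1 array on one side. Its probe was detected on 20 of 22 arrays and lay close to background, where differences are compressed. The call was lost with slide as a fixed block (-0.38, adjusted p = 0.105) or a random block (-0.41, adjusted p = 0.0546), and without LL replicate 1 and WL replicate 5 together (-0.42, adjusted p = 0.0763). It was also lost in 14 of 22 fits that left out 1 mouse: LL replicate 2, 5 or 6, LW replicate 1, 2, 4 or 5, WL replicate 1, 3, 4 or 5, or WW replicate 1, 3 or 4 (-0.45 to -0.37, adjusted p 0.0535 to 0.101).

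Of the cell type markers, Cfd alone passed the same test of offspring diet among those of hepatocytes, adipocytes and erythrocytes. For offspring diet, 3 of 3 erythrocyte markers had higher means on the western diet (median 0.41, and 0.24 with slide as a block, adjusted p 0.0757 to 0.759, summed log2 level 37.35 to 37.99 in LL, 37.85 to 39.23 in LW, 37.80 to 39.24 in WL and 38.44 to 40.12 in WW). All 5 tested hepatocyte markers had lower means (median -0.18, and -0.013 with slide as a block, adjusted p 0.0673 to 0.762), with summed levels from 62.75 to 65.67 in LL, 62.14 to 64.25 in LW, 63.84 to 64.97 in WL and 61.57 to 64.63 in WW. Of 6 adipocyte markers 2 were tested, Plin1, Fabp4 and Ucp1 were not detected on any array, and Cfd, an adipocyte-secreted complement factor, was called (2.30 ± 0.59, adjusted p = 0.0345), while Lep, which codes for leptin, differed by -0.07 (adjusted p = 0.807). The adipocyte sum ran from 27.87 to 32.30 in LL, 31.60 to 33.22 in LW, 27.12 to 32.39 in WL and 27.74 to 33.93 in WW. At an unadjusted p under 0.05 (20% of all genes), 1 of 5 hepatocyte, 1 of 2 adipocyte and 2 of 3 erythrocyte markers passed. In the sets not detailed here, 2 of 6 Kupffer cell and macrophage, 1 of 3 exocrine pancreas and 0 of 3 T and B cell markers did. The part of all these markers in the Cox7b result was not tested.

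Cox6c, another small membrane subunit of complex IV, had the largest difference of any member. LL mice ran from 9.48 through a median of 10.39 to 10.95, and LW mice stood at 9.04, 9.31, 9.51, 9.62 and 9.73. WL mice stood at 10.05, 10.64, 10.19, 10.12 and 11.04, and WW mice ran from 9.29 through 10.25 to 10.86. LL replicate 1, at 9.48, lay among the LW mice and the other 5 LL mice lay above all of them. In LW against LL the difference was -0.92 ± 0.25 (adjusted p = 0.104), and without LL replicate 1 it was -1.10 (adjusted p = 0.0399). In WW against WL it was -0.21 ± 0.25 (adjusted p = 0.762), and the interaction was 0.71 ± 0.36 (adjusted p = 0.637), so a difference between dam diets was not shown. Averaged over dam diets it was -0.56 ± 0.18 (adjusted p = 0.0798), and it passed at -0.65 without LL replicate 1 (adjusted p = 0.0254) and at -0.63 without WW replicate 6 (adjusted p = 0.0435), but was -0.29 with slide as a block (adjusted p = 0.194). The slide means of Cox6c were 9.40, 10.05, 10.16 and 10.75 for slides 1 to 4, and no LW array lay on slide 4. With slide as a block the LW against LL difference was -0.50 (adjusted p = 0.267).

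Cox5a, a matrix-side subunit, was 12.75 ± 0.20 in LL, 12.43 ± 0.16 in LW, 12.78 ± 0.09 in WL and 12.63 ± 0.28 in WW. Its average difference was -0.24 ± 0.09 (adjusted p = 0.144), and -0.14 with slide as a block (adjusted p = 0.349). Cox5b, its neighbour in the complex, was 13.60 ± 0.08, 13.62 ± 0.12, 13.63 ± 0.17 and 13.60 ± 0.11 in LL, LW, WL and WW, with an F of 0.03 over the groups. Another Cox5b probe, detected on all 22 arrays at a lower mean level (11.25), differed for offspring diet by -0.296 ± 0.123 (limma adjusted p = 0.184). The 2 probes of Cox5b thus differ in how flat they were.

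**Figure D3:**
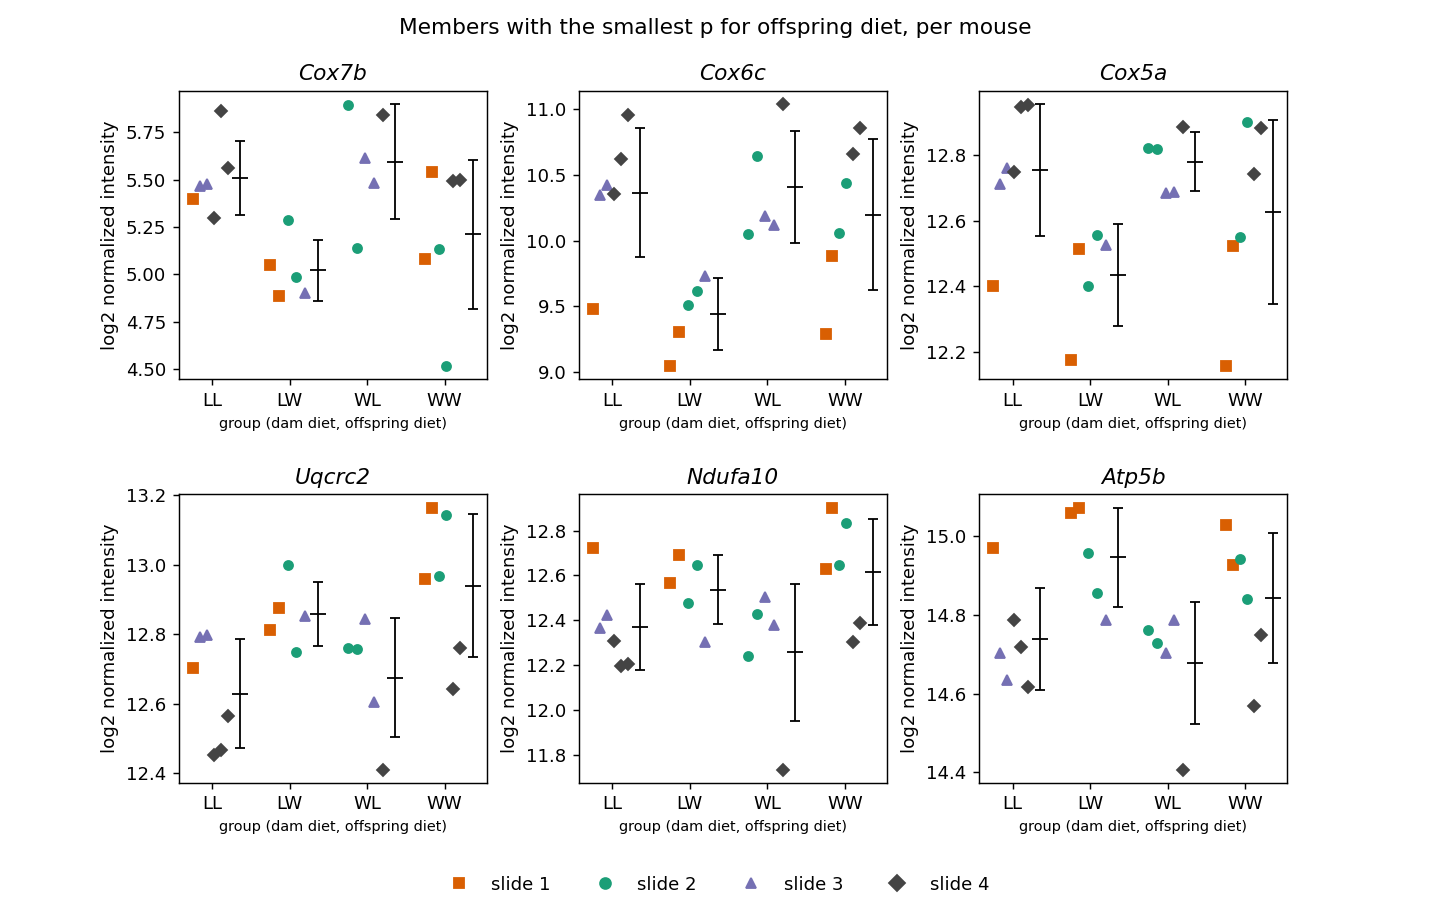
Log2 normalized intensity of each mouse (points by slide) for Cox7b, Cox6c, Cox5a, Uqcrc2, Ndufa10 and Atp5b, the 6 members with small p for offspring diet, with the group mean and SD. The LW points of Cox7b lie below all LL points, LL replicate 1 on slide 1 is the low LL point of Cox6c (9.48), and the LW points of Cox6c and Cox5a lie below all WL points.

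Several complex IV subunits exist as a broadly used form and a tissue form. Cox4i1, the common form of subunit 4, was 13.22 ± 0.11 in LL, 13.19 ± 0.19 in LW, 13.41 ± 0.11 in WL and 13.25 ± 0.14 in WW, and its lung form Cox4i2 was not detected on any array. Cox6a1, the liver form of subunit 6a, was 13.75 ± 0.22, 13.82 ± 0.14, 13.59 ± 0.08 and 13.77 ± 0.21 in LL, LW, WL and WW. Its heart and muscle form Cox6a2, detected on 6 of 22 arrays, was 4.73 ± 0.28, 4.61 ± 0.22, 4.84 ± 0.37 and 4.79 ± 0.25 in the same order. Cox6b1 was 13.91 ± 0.14, 14.16 ± 0.15, 13.97 ± 0.15 and 14.02 ± 0.26, and its testis form Cox6b2 was detected on 2 arrays. Cox7a1, the heart and muscle form of subunit 7a, was detected on all 22 arrays, at 7.64 ± 0.39, 7.47 ± 0.35, 7.43 ± 0.41 and 7.80 ± 0.48. The liver form Cox7a2 was 5.54 ± 0.42, 5.69 ± 0.25, 5.77 ± 0.39 and 5.52 ± 0.29 in the same order. Of the remaining tissue forms, Cox7b2 and Cox8c were not detected on any array and Cox8b was detected on 4. None of these isoform genes was called in any contrast.

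Complex V, the ATP synthase, had all 14 of its genes tested and 0 called. For offspring diet 4 were higher and 10 lower, from -0.23 (Atp5h) to 0.19 (Atp5b), and all 14 intervals lay within 1.5-fold. Atp5b, the catalytic beta subunit, was 14.74 ± 0.13 in LL, 14.95 ± 0.12 in LW, 14.68 ± 0.15 in WL and 14.84 ± 0.16 in WW, and WL replicate 5 was lowest at 14.41. Its average difference was 0.19 ± 0.08 (adjusted p = 0.166), and 0.08 with slide as a block (adjusted p = 0.538). Under array centring in place of quantile normalization it was 0.017. The highest raw signal of Atp5b was 67.2% of the highest on any array. Atp5a1, the alpha subunit, differed by -0.21.

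Atp5c1, the gamma subunit that turns inside the catalytic head, was lowest in LW. LL mice ran from 12.94 through 13.24 to 13.32, and LW mice stood at 12.97, 13, 12.75, 12.79 and 12.72. WL mice stood at 12.94, 13.29, 13.20, 12.88 and 13.27, and WW mice ran from 12.95 through 13.17 to 13.29. In LW against LL the difference was -0.35 ± 0.11 (adjusted p = 0.136). It was 0.04 within slide 1 and -0.57 within slide 3, each resting on 1 array on one side. In WW against WL it was 0.01 ± 0.11, and the interaction was 0.36 ± 0.15 (adjusted p = 0.580). Atp5e, the epsilon subunit of the same stalk, was 5.45 ± 0.24 in LL, 5.37 ± 0.26 in LW, 5.52 ± 0.17 in WL and 5.18 ± 0.18 in WW, and differed for offspring diet by -0.21 ± 0.10 (adjusted p = 0.210). Atp5k, subunit e of the membrane part, was detected on 12 arrays and had its highest mean in WW, at 5.09 ± 0.09 against 4.75 ± 0.30 in LL, 4.72 ± 0.22 in LW and 4.91 ± 0.27 in WL.

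Among the 6 genes that match by name only, Dmac2 stood out. It was 8.77 ± 0.24 in LL, 8.88 ± 0.24 in LW, 8.97 ± 0.19 in WL and 8.47 ± 0.22 in WW. WW mice ran from 8.24 through 8.40 to 8.79 and WL mice stood at 9.15, 8.66, 8.95, 9.06 and 9.03, so that only WL replicate 2 overlapped with WW. The difference was -0.50 ± 0.14 in WW against WL (adjusted p = 0.111) and 0.11 ± 0.14 in LW against LL, and the interaction was -0.61 ± 0.20 (adjusted p = 0.518). Within slides WW minus WL was -0.34 on slide 2 and -0.56 on slide 4, where WL had 1 array. Cox7a2l, of which C57BL/6 mice are known to carry a shortened form, differed for offspring diet by -0.20 and Dmac2l by 0.21, and neither was called.

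The western diet after weaning could be compared in both dam groups, which share no arrays. Of 73 members 31 were lower in both LW against LL and WW against WL, 20 were higher in both and 22 went opposite ways (42.5%, 27.4% and 30.1%, against 29.0%, 30.0% and 41.0% of all genes). Both comparisons are spread unevenly over the same 4 slides. No member passed in the interaction. For the diet of the dam, the median member differed by 0.025 in WL against LL, by 0.016 in WW against LW and by 0.0043 in the average, and 72 of 73 intervals of the average lay within 1.5-fold. Cox6c, at 0.40, was the highest member in that average (adjusted p = 0.816), and Emc8, at -0.23, the lowest.

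**Figure D4:**
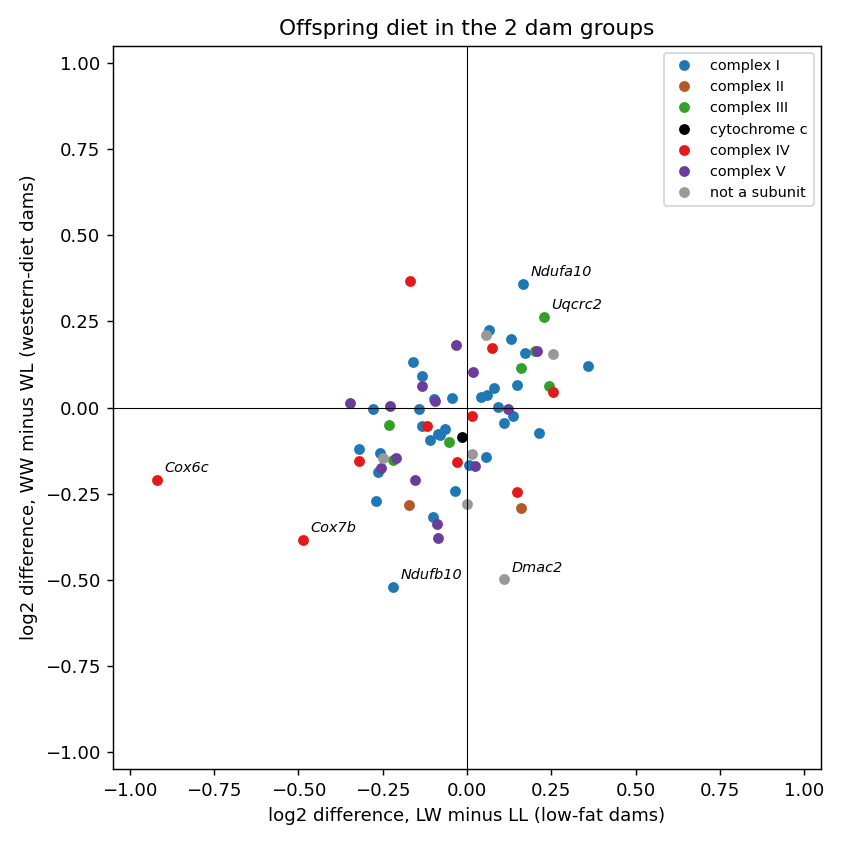
Each point is 1 of the 73 members, coloured by complex; the x axis is the log2 difference LW minus LL and the y axis WW minus WL. In all, 31 points lie below 0 on both axes, and Cox6c at -0.92 and -0.21 lies farthest out.

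Members differed between slides more often than other genes did. With diet group in the fit, 31 of 73 members (42.5%) passed a limma F test for slide, against 15% of all genes and 18.6% of the genes detected on all arrays. The median F for slide was 4.99 over members and 2.04 over all genes, where 0.826 is expected without a difference. The largest were Cox6a1 (33.6), Cox6b1 (30.7), Ndufs3 (24.2), Ndufb10 (21.2), Ndufa3 (17.4), Cox6c (16.2), Uqcrc2 (14.8) and Cyc1 (14.7). Ndufs3, a core subunit of complex I, had slide means of 9.99, 10.66, 10.73 and 10.83, and Cox6a1 of 14.02, 13.72, 13.66 and 13.58 for slides 1 to 4. The offspring diet differences of the same genes were -0.27 for Ndufs3 and 0.12 for Cox6a1. Genes of the mitochondrial ribosome passed the slide test in 33.3% of cases and those of the citric acid cycle in 40.0%. Mitochondrial antioxidant enzymes passed in 44.4% (4 of 9), a higher share than the members. The share was 31.6% for other electron donors and ubiquinone synthesis and 26.7% for regulators of mitochondrial gene expression. It was 23.3% for electron transport assembly factors and 20% for nucleotide exchange genes.

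**Figure D5:**
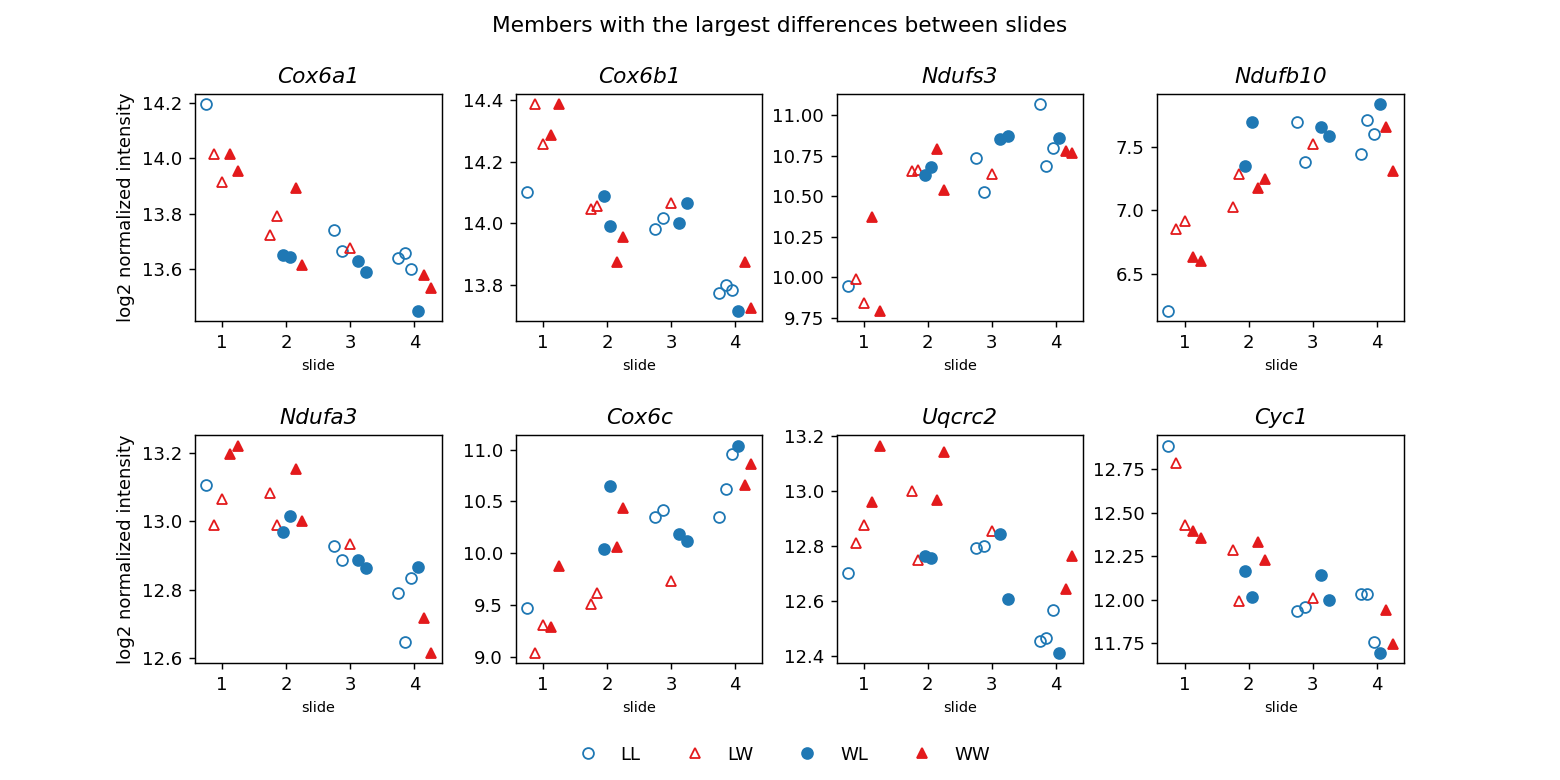
Log2 normalized intensity of the 8 members with the largest F for slide, by slide, with the group of each mouse as symbol. On slide 1 Ndufs3, Ndufb10 and Cox6c lie low and Cox6a1 and Cyc1 high in every group present. The LW points of Cox6c lie below all WL points on slides 2 and 3.

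Subunits encoded in mitochondrial DNA are not members by name, since the pattern finds nuclear genes. On the array 8 of the 13 such names had a probe, and all 8 were tested in a fit over 16268 probes with 0 called by limma in each of the 8 contrasts (background 0.104% for LW against LL, then 0.289% for WW against WL and 2.35% for the average effect of offspring diet). At an unadjusted p under 0.05, 6 of 8 passed in LW against LL, where 14.9% of all probes did, 0 of 8 in WW against WL (13% of all probes) and 5 of 8 in the average (19%). MT-ND1, a core subunit of complex I, stood at 10.59, 11.34, 11.51, 11.60 and 11.37 in LW, and LL mice ran from 11.48 through 12.40 to 12.82. The LW against LL difference was -0.97 ± 0.24 (adjusted p = 0.0831), and the WW against WL difference was -0.16 ± 0.24. MT-CO2, a catalytic subunit of complex IV, gave -0.76 ± 0.30 (adjusted p = 0.247) and -0.18 ± 0.30, and MT-CYTB of complex III -0.07 ± 0.13 and -0.02 ± 0.13. In LW against LL 7 of the 8 probes were lower, MT-ND5 being the exception at 0.55 ± 0.22, where the median over all probes was 0.0078. MT-ND5 was detected on 15 arrays and MT-ND6, 1 of the lower probes, on 8, both near background. Both are among the 6 that met the unadjusted threshold in LW against LL. The average difference of MT-ND1 was -0.565 ± 0.171 (adjusted p = 0.0746), and -0.39 with slide as a block (adjusted p = 0.191). For MT-CO2 it was -0.468, and -0.256 with slide as a block (limma adjusted p = 0.497). In that slide-block fit MT-ATP6 stood at -0.223, MT-ND4L at -0.165, MT-ND6 at -0.417, MT-ND4 at 0, MT-CYTB at 0.051 and MT-ND5 at 0.134.

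Related mitochondrial genes were taken from 7 lists. In the average effect of offspring diet 6 of them called 0 genes: 0 of 30 electron transport assembly factors, 0 of 15 citric acid cycle genes, 0 of 69 mitochondrial ribosome genes, 0 of 15 regulators, 0 of 10 nucleotide exchange genes and 0 of 9 antioxidant enzymes (limma, adjusted p under 0.05). At an unadjusted p under 0.05 the counts in this order were 7, 3, 16, 1, 4 and 4, where 20% of all genes passed. Their medians were 0.016, -0.017, 0.042, -0.066, -0.0093 and -0.041. Among 19 genes for other electron donors to ubiquinone and for ubiquinone synthesis 13 were higher, 8 had an unadjusted p under 0.05 (20% of all genes did) and 1 was called (2.71% of all genes were). That was Coq7, a hydroxylase of ubiquinone synthesis, which rose by 0.48 ± 0.12 (adjusted p = 0.0306), with 0.45 ± 0.17 in LW against LL and 0.51 ± 0.17 in WW against WL. With slide as a block it was 0.43 and not called. Of the regulators, Ppargc1a differed by -0.20 ± 0.12, Ppargc1b by 0.12 ± 0.14, Esrra by -0.10 ± 0.07, Nrf1 by -0.07 ± 0.09, Gabpa by 0.16 ± 0.12 and Tfam, the mitochondrial transcription factor, by -0.20 ± 0.10. None of these 6 passed, with adjusted p from 0.267 to 0.739.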

How the data were processed

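Liver RNA of 22 mice was labelled with biotin and hybridised to Illumina BeadChip arrays, per the labels' protocols. The deposited table holds a background-subtracted mean intensity and a detection p-value per probe and array, per the file headers; between 33.2% and 41.2% of intensities on an array were below 0. A second deposited table holds normalized intensity on a linear scale, whose method is not given in the sources used here, and it served as an alternative. Its columns each matched their own array best (22 of 22).

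With limma 3.58.1 in R 4.3.3, intensities were corrected and quantile normalized by neqc (offset 16, negative-control level inferred from the detection p-values). Probes with detection p under 0.05 on at least 5 arrays were kept, and the probe with the highest mean stood for its gene, which left 9881 genes. Probe names were updated through RefSeq gene tables, by symbol for 27399 probes and by synonym for 8314. Of the tested members 22 had several detected probes (47 in all); for 13 of these genes the offspring diet difference had the same sign at every probe and for 9 it did not. The 4 group means came from 1 fit over the 22 arrays (lmFit, eBayes), and p-values of each contrast were adjusted over all 9881 genes by Benjamini-Hochberg and called under 0.05. The number of arrays limits the precision. On simulated data for the average offspring diet, 10% of 50 genes changed by 0.25 (log2), 62% of 50 changed by 0.5 and 100% of 50 changed by 1 were recovered. For a change of 0.25 recovery was 2% in LW against LL and 0% in WW against WL, and for 0.5 it was 38% and 36%, and 8% in the interaction. The changed genes were drawn from all 9881, with noise independent between genes and no slide difference. Members had a smaller median spread (0.20 against 0.26) and a larger median F for slide (4.99 against 2.04), so these rates are not those of the members.

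The members and gene lists were chosen with earlier results of these data known. Values are given in full for called members, the 3 per complex with the smallest p of the F test, the highest and lowest level per complex and the tissue isoforms; genes named beside these were chosen after their values were seen, and the values of 1 member are not reported here. Of 31 same-numbered pairs of mice 16 had deviations correlated above 0.1 (-0.182 to 0.452 in all). Their median correlation was 0.111, against -0.028 for pairs with different numbers. Replicate numbers partly follow the slides, so a pairing by number cannot be told apart from a difference between slides. The main fit did not take the numbers as pairs. No 2 arrays were identical (correlations 0.968 to 0.992). Alternatives changed the normalization, the detection filter, the probe rule, the slide term, array weights, the groups in the fit and the mice left out.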

Additional observations from a re-analysis of the deposited data

Results flagged for a closer look

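In 10 of 132 combinations of a described gene or score with a diet group, the lowest or highest mouse lay farther from the rest of its group than Dixon's 95% limit; chance flags about 5%. LL replicate 1, on slide 1, accounted for 6 of them. Its Ndufb10 level was 6.21 (7.38 to 7.71 in the other LL mice), Sdhc 11.3 (11.77 to 12.05), Uqcr11 12.83 (13.35 to 13.53) and Cox6a1 14.2, a high value (13.6 to 13.74). Its score over all members was -0.09 (0 to 0.03), and over the genes that are not subunits -0.21 (-0.01 to 0.11). WL replicate 5, on slide 4, had Cox6b1 at 13.71 (13.99 to 14.09), Atp5b at 14.41 (14.7 to 14.79) and Cox7a1 at 6.71 (7.48 to 7.7). WW replicate 1 had a complex IV score of -0.21 (-0.03 to 0.07 in the other WW mice).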

How the results depend on the processing

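Of the named members, only differences with an unadjusted p under 0.05 in the main fit were recomputed under the alternatives. Of the recomputed values 1099 kept their side of the adjusted p threshold, 16 passed it newly and 21 lost it. None changed sign, which this selection made likely in advance. The 1 call in the average effect of offspring diet became 0 without a filter on detection, with a fixed or a random slide block, with slide as a block and array centring together, without slide 1 and without LL replicate 1 and WL replicate 5 together. It became 3 with array weights, which also gave 2 in LW against LL and 1 in the F test. With the replicate number as a block, calls were 5 in the average effect of offspring diet, 1 in LW against LL and 1 in the F test. These numbers partly follow the slides, and whether they mark a pairing is not known. The deposited normalized values gave 1 call in WW against WL (Uqcrc2, 0.249, adjusted p = 0.0423), and for offspring diet Uqcrc2 passed (0.174, adjusted p = 0.0234) and Cox7b did not (-0.0352, adjusted p = 0.11). Without LL replicate 1 and WL replicate 5 together, LW against LL had 1 call (Cox6c). Over the 13 alternatives for offspring diet other than leaving out 1 mouse, 0 to 5 members and 73 to 788 of all genes or probes were called. Leaving out 1 mouse at a time gave 0 to 3 calls for offspring diet, 0 to 1 in LW against LL and 0 in all other contrasts. Calls among all genes then ran from 136 to 524 for offspring diet (268 in the main fit) and from 4 to 87 in LW against LL (24). For these contrasts the fit without LL replicate 1 gave the highest count of members and of all genes.

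The members' median moved with the scaling. Array centring gave -0.174 for WW against WL, -0.0532 for WW against LW, -0.125 for WW against LL, -0.0956 for the interaction and -0.136 for the average of offspring diet. Slide as a block with array centring gave 0.00971 for LW against LL, -0.123 for WW against WL, -0.0777 for WW against LW and -0.118 for the interaction. Slide as a block alone gave -0.00506 for WW against WL and -0.0183 for the average of offspring diet, and the deposited values gave -0.00917 and -0.0159. For LW against LL the median was -0.0859 with the mean of a gene's probes, -0.0802 with every probe by itself and -0.0963 without LL replicate 1 and WL replicate 5 together. The cause was not tested. Over left-out mice the medians ran from -0.0963 to -0.0138 (LW against LL), -0.0516 to -0.0236 (WW against WL), 0.00734 to 0.0289 (WL against LL), -0.00437 to 0.0416 (WW against LW), -0.0669 to -0.0223 (WW against LL), -0.0321 to 0.0182 (interaction), -0.0803 to -0.0446 (offspring diet) and -0.00435 to 0.0203 (dam diet). Slide as a block with array centring, and leaving out slide 1, were chosen after seeing the data. Members near background, such as Cox7b, have compressed differences.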
